A study of Mus musculus with 6 samples.

Results

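The 10 genes described here encode the contactins (Cntn1, Cntn2, Cntn3, Cntn4, Cntn5 and Cntn6) and the L1 family (L1cam, Chl1, Nrcam and Nfasc), chosen by gene symbol from a table of 17971 genes. All 10 were in the table, and all 10 had enough counts to be among the 14338 genes tested. Gene expression was measured by RNA-seq in dorsal root ganglia, the clusters of sensory neurons and their glia beside the spinal cord, taken from male mouse embryos at stage E13.5. In the cKO group, 3 libraries were made from embryos with 2 floxed copies of Ybx1 and 1 Wnt1-cre transgene (Wnt1-cre+/-;Ybx1fl/fl), and in the Ctrl group 3 libraries from littermates with the same floxed copies and no Cre (Ybx1fl/fl). Cre under Wnt1 control acts in the neural crest lineage, which gives rise to the neurons and glia of the ganglia but not to their blood or endothelial cells. No group carried Cre with intact Ybx1, so in every result effects of Cre and of losing Ybx1 cannot be told apart.

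Contactins and L1 family proteins are immunoglobulin-like cell adhesion molecules of axons and glia. Contactins have no transmembrane segment and are held to the membrane by a lipid (GPI) anchor, so they act together with partners such as the contactin-associated proteins. L1 family proteins cross the membrane and bind ankyrins, which tie them to the spectrin skeleton beneath. In developing sensory ganglia these proteins are known for axon growth, bundling and guidance, and later for the organisation of nodes of Ranvier. Ybx1 encodes an RNA-binding and DNA-binding protein named for the Y-box, a DNA element built around the CCAAT sequence.

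The libraries held 16464264 to 17446385 estimated counts each. Ybx1 fell from 927, 809 and 817 normalised CPM in Ctrl 1, 2 and 3 to 137, 122 and 108 in cKO 1, 2 and 3, so each library went with its label (CPM are counts scaled to a common library size). Sensory neuron markers were abundant: 12 of 12 were detected, with summed levels of 12408 to 12930 TPM in Ctrl and 11572 to 13255 in cKO (TPM are transcript abundances corrected for length and scaled to a common total). The 12 Schwann cell and satellite glia markers summed to 2858 to 2900 TPM in Ctrl and 2970 to 3054 in cKO, ranges that did not overlap. Spinal cord markers, 10 in all, summed to only 1.72 to 2.29 TPM in Ctrl and 2.26 to 3.58 in cKO. Of these, 2 had enough counts to be tested. In edgeR 1 of the 2 passed as higher in cKO with and without the replicate number as a block (log2 fold change 2.12 without it). The 8 macrophage markers summed to 115 to 133 TPM in Ctrl and 146 to 207 in cKO, without overlap and highest in cKO 1, and all 8 had positive log2 fold changes (median 0.43). The erythroid markers were highest in cKO 1 too (33591 TPM, against 9697 to 16162 in the other libraries). In the test across all genes, 69 genes (0.481% of those tested) passed an edgeR adjusted p of 0.05. With the replicate number as a block, which compares each cKO library with the Ctrl library of the same number, 764 genes (5.33%) passed.

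The members lay in part side by side in the genome (coordinates from RefSeq, GRCm38.p6). Cntn2 (chromosome 1, 132509425 to 132543251) and Nfasc (chromosome 1, 132564690 to 132741848) were 21.4 kb apart. Cntn3 (chromosome 6, 102163304 to 102564614), Chl1 (103510584 to 103733038), Cntn6 (104492662 to 104863406) and Cntn4 (105677632 to 106700141) spanned a 4.54 Mb stretch of chromosome 6 in which no other gene was among those tested. The remaining members were Cntn5 (chromosome 9, 9634223 to 10904775), Nrcam (chromosome 12, 44328786 to 44605194), Cntn1 (chromosome 15, 92051152 to 92341967) and L1cam (chromosome X, 73853778 to 73880838). Cntn5 and Cntn4 spanned 1270.6 and 1022.5 kb, while L1cam and Cntn2 spanned 27.1 and 33.8 kb.

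Promoter windows are shown for Cntn4 and Nfasc, the members that passed a test below, and for Cntn1, whose level differed least between the groups. RefSeq gave 16 such windows for the 10 members, each running from 250 bases before a transcript start to 50 after it. The letters CCAAT, or ATTGG on the other strand, were found in 7 of the 16 windows (43.8%) and in 37.4% of all 32851 promoter windows in the RefSeq table. In the sequences below, capitals mark these 5-base matches. A match describes the letters only, and neither binding nor the start site used in these ganglia was measured.
Cntn4, chr6:106118692-106118991, plus strand: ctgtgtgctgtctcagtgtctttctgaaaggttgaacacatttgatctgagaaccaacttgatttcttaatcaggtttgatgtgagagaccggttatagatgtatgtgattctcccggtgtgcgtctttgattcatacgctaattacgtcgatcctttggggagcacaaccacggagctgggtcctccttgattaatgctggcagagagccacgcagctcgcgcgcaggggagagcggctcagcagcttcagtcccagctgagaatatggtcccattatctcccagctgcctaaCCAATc
Nfasc, chr1:132642809-132643108, minus strand: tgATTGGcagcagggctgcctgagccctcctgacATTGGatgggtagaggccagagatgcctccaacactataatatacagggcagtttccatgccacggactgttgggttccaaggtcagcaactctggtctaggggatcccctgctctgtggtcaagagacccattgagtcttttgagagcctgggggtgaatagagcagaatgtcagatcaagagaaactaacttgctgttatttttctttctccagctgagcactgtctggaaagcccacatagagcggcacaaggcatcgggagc
Cntn1, chr15:92050915-92051214, plus strand: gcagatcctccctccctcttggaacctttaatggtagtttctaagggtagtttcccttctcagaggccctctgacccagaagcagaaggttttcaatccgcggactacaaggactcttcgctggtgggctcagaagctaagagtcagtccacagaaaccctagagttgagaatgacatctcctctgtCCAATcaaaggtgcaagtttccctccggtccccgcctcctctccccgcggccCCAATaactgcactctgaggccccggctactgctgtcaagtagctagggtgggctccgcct
The Cntn4 window held 1 match, starting 45 bases into the transcript, and its other window, from a start 177 bases upstream, held none. The Nfasc window held matches 248 and 216 bases before its start, and the other Nfasc window held none. Both the Cntn4 and the Nfasc start shown lie inside the gene's full span. The Cntn1 window shown held matches 63 and 11 bases before its start. Another Cntn1 window held matches 226 and 135 bases before its start, and a further window held none. Over all windows, 5 of the 10 members had a match. These were Cntn4 and Nfasc, and also Cntn1, Cntn5 and L1cam, which did not pass with or without the block. Members differ in their number of windows, and the share of all genes with a match in any window was not computed. The Cntn5 windows overlap and hold the same match, which is counted once in each. Whether a match bears on the change of a member was not tested.

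Levels per transcript length differed by more than 2 orders of magnitude among the members. In Ctrl, Cntn2 (also called TAG-1 or axonin-1, a contactin of early growing axons) was highest, with 272, 342 and 316 TPM in Ctrl 1, 2 and 3. L1cam, the founding member of the L1 family, followed with 165, 221 and 202 TPM. These 2 genes made up 46.2% and 29.2% of the summed mean TPM of the 10 members. Next came Cntn1 at 45.5 ± 3.64, Cntn5 at 41.4 ± 9.15, Nrcam at 30.9 ± 3.91, Nfasc at 24.9 ± 4.28 and Cntn4 at 16.5 ± 1.07 TPM (SD, n = 3). Among neighbours in this order, the ranges of the Ctrl libraries overlapped between Cntn1 and Cntn5, Cntn5 and Nrcam, and Nrcam and Nfasc, so their order is not resolved. Cntn3, Cntn6 and Chl1 stood at 2.47 ± 0.09, 1.78 ± 0.32 and 1.69 ± 0.26 TPM, and the ranges of Cntn6 and Chl1 overlapped. Cntn2 was 184 times as high as Chl1. Levels are totals per gene and do not separate transcript isoforms, of which Nfasc has distinct neuronal and glial ones.

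**Figure D1:**
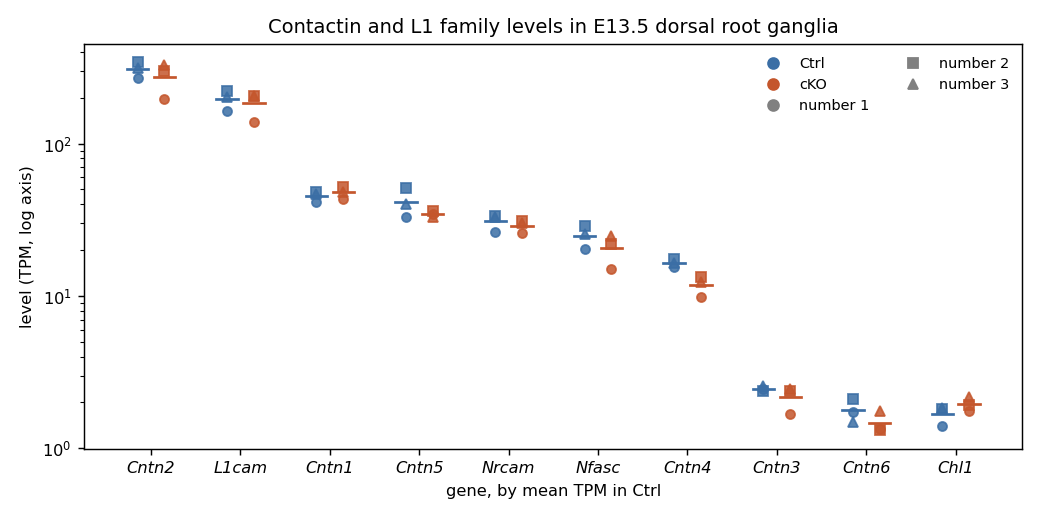
Level of each member (TPM, log axis) in every library, blue for Ctrl and orange for cKO, with the replicate number as the symbol and the group mean as a bar. Cntn2 and L1cam stand above the rest in both groups, Cntn3, Cntn6 and Chl1 lie near 2 TPM, and the groups of Cntn4 do not overlap (15.4 to 17.6 TPM in Ctrl, 9.89 to 13.3 in cKO).

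Among the contactins, Cntn4 was lower in cKO, and it was the 1 member called without the replicate block. Cntn4, also known as BIG-2, binds amyloid precursor family proteins and is known for axon targeting in sensory systems. It stood at 45.7, 46.4 and 45.5 CPM in Ctrl 1, 2 and 3, and at 30.6, 35.3 and 32.2 CPM in cKO 1, 2 and 3. The Ctrl libraries lay within 1 CPM of each other, and every cKO library was below every Ctrl library. Its log2 fold change was -0.49 with an SE of 0.08, or 0.713-fold, with an edgeR adjusted p of 0.0175. Its p-value ranked 27 among the 14338 genes tested. With the replicate block the log2 fold change was again -0.49 and the edgeR adjusted p was 0.000381. The same-numbered pairs differed by -0.58, -0.39 and -0.50 on the log2 CPM scale. As these are whole ganglia, fewer cells that express a gene and less of its RNA per cell cannot be told apart.

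The fall of Cntn4 was nearly as large when set against sensory neuron markers of the same library. Relative to the mean log2 CPM of the 12 sensory neuron markers, Cntn4 stood at -4.13, -4.12 and -4.09 in Ctrl and at -4.59, -4.50 and -4.62 in cKO. The difference was -0.46 on that log2 scale, and the groups did not overlap. Chl1 also did not overlap on this scale, with cKO above Ctrl (0.24), and the other members did. The share of all genes without overlap on this scale was not computed. In CPM it was 8.77% with cKO lower and 7.83% with cKO higher. The neuron markers do not count the cells that express Cntn4, so fewer such cells and less RNA per cell still cannot be told apart. The median log2 fold change over the marker list itself was -0.02. With the block 3 of its 12 genes were lower in edgeR, beside 3.56% of all genes, and without it none passed. Leaving out Ctrl 2, Ctrl 3 or cKO 3 ended the call of Cntn4 in the test without the block (edgeR adjusted p 0.115, 0.0867 and 0.0683), while its log2 fold change stayed between -0.44 and -0.55. On log2(TPM + 1) values, limma gave Cntn4 an adjusted p of 0.284.

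The other contactins did not pass either test. Cntn5 (also called NB-2), which like Cntn4 is known from sensory circuits, had 136, 196 and 154 CPM in Ctrl and 145, 136 and 123 CPM in cKO. The log2 fold change of Cntn5 was -0.26 (edgeR adjusted p 0.450). It was higher in cKO in pair 1 (0.09 on the log2 CPM scale) and lower in pairs 2 and 3 (-0.52 and -0.32). Leaving out Ctrl 2 alone moved the log2 fold change of Cntn5 to -0.11. With the block and without the number 1 libraries, 4 libraries in all, Cntn5 passed (log2 fold change -0.42, edgeR adjusted p 1.83e-11). The same 4 libraries without the block gave -0.43, and Cntn5 did not pass (edgeR adjusted p 0.200). Both fits leave out the pair in which Cntn5 was higher in cKO. The estimated counts of Cntn5 were fractional, as was the Ctrl 3 count of Cntn1 (2342.38). An annotated antisense gene, Gm32710, shares 290 bases of the Cntn5 exons but was not among the genes deposited. The source of the fractions was not tested.

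Cntn2, the most abundant member, had 1503, 1744 and 1625 CPM in Ctrl and 1111, 1505 and 1655 CPM in cKO. The groups overlapped, with cKO 1 well below the other libraries. The log2 fold change of Cntn2 was -0.19 (SE 0.13, edgeR adjusted p 0.668), and it was -0.04 without cKO 1. By pairs, Cntn2 differed by -0.44, -0.21 and 0.03. It passed with the block when the number 3 libraries were left out (log2 fold change -0.32, edgeR adjusted p 0.000274), but not with all 6 libraries (0.223). Without the block, leaving out the number 3 libraries gave Cntn2 -0.31, and it did not pass (edgeR adjusted p 0.811). Cntn1 (contactin or F3), the partner of contactin-associated protein 1 at paranodes, had 136, 146 and 144 CPM in Ctrl and 146, 154 and 144 CPM in cKO. Cntn1 had a log2 fold change of 0.06, with a 95% interval from -0.08 to 0.20, so a change as large as that of Cntn4 lies outside the interval.

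The scarce contactins were measured with less precision. Cntn3 (BIG-1) had 6.92, 6.07 and 6.62 CPM in Ctrl and 4.90, 5.90 and 6.24 CPM in cKO. The log2 fold change of -0.20 had a 95% interval from -0.51 to 0.10. Cntn6 (NB-3), known from cerebellar and cortical development, had 3.37, 3.81 and 2.76 CPM in Ctrl and 2.65, 2.34 and 3.09 CPM in cKO. For Cntn6 the log2 fold change of -0.30 had an interval from -0.72 to 0.12. These intervals include 0, and a fall as large as that of Cntn4 is also inside both.

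**Figure D2:**
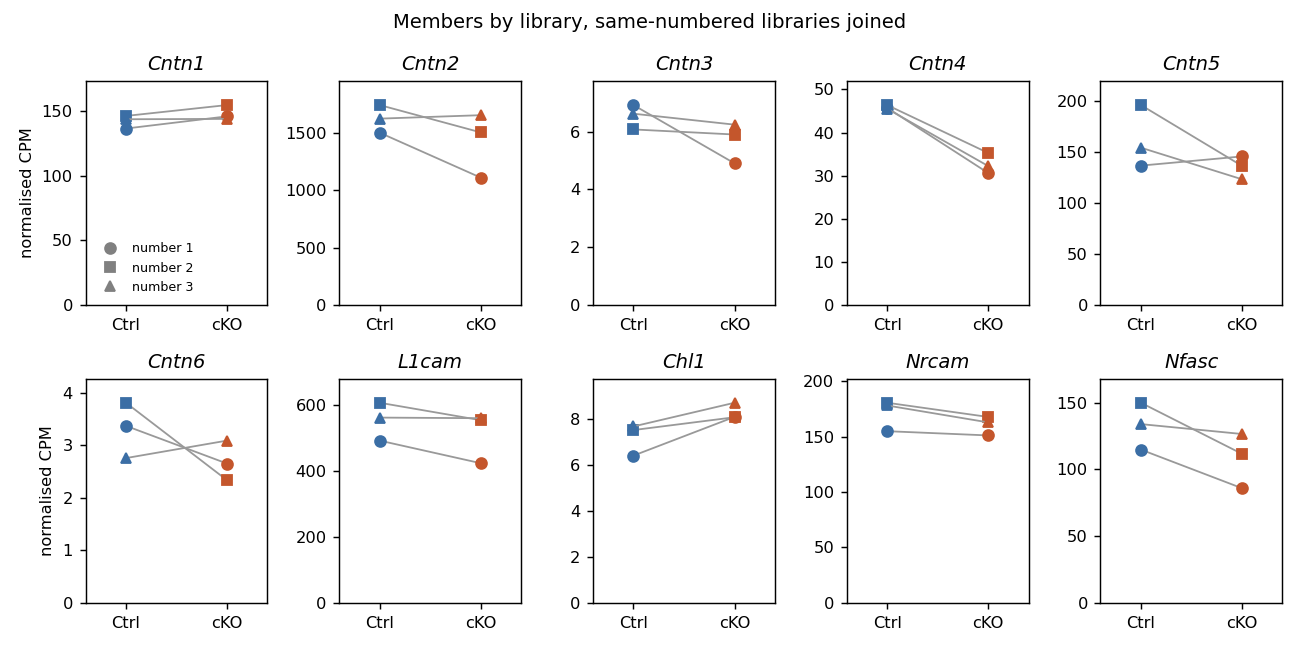
Normalised CPM of each member in Ctrl and cKO, 1 panel per gene with an axis from 0, with lines joining libraries of the same number. The 3 lines of Cntn4 all fall from about 46 CPM, the 3 lines of Nfasc also fall but from different Ctrl levels. Cntn2, Cntn5 and Cntn6 have both rising and falling lines.

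In the L1 family, Nfasc was lower in cKO once the replicate number was taken into account. Nfasc encodes neurofascin, which binds ankyrins at axon initial segments and nodes. It stood at 115, 150 and 134 CPM in Ctrl 1, 2 and 3 and at 85.9, 112 and 126 CPM in cKO 1, 2 and 3. The groups overlapped, but cKO was lower in each pair, with differences of -0.42, -0.43 and -0.08 on the log2 CPM scale. Without the block its log2 fold change was -0.30 (SE 0.13, edgeR adjusted p 0.448), and with it -0.31 (SE 0.07, edgeR adjusted p 0.0164). The blocked call of Nfasc was lost without the number 2 libraries (log2 fold change -0.25, edgeR adjusted p 0.185). Without cKO 1 the log2 fold change in the test without the block was -0.16.

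Nfasc and its neighbour Cntn2 had log2 fold changes of -0.31 and -0.21 with the block. The nearby tested genes Rbbp5 and Dstyk, on the other side of Cntn2 and within 100 kb, had -0.09 and -0.18, with edgeR adjusted p of 0.429 and 0.122. On chromosome 6, Chl1 lay among contactins whose log2 fold changes were negative and had a positive one.

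The other L1 family genes did not pass. L1cam had 493, 608 and 563 CPM in Ctrl and 424, 555 and 561 CPM in cKO, ranges that overlapped. Its log2 fold change was -0.11 (SE 0.11), and -0.12 with the block (SE 0.05, edgeR adjusted p 0.193). Without cKO 1 the log2 fold change of L1cam was 0.0089. The same-numbered pairs differed by -0.22, -0.13 and -0.0046 on the log2 CPM scale, and without both number 1 libraries the log2 fold change was -0.07 with and without the block. Exons of L1cam share 100 annotated bases with those of Arhgap4 on the same strand, so a few reads could belong to either gene. Nrcam, a partner of neurofascin in building nodes, had 155, 181 and 178 CPM in Ctrl and 151, 168 and 163 CPM in cKO. The log2 fold change of Nrcam was -0.09, with a 95% interval from -0.26 to 0.08.

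Chl1, the close homolog of L1, was the L1 family member with a positive log2 fold change. It had 6.39, 7.50 and 7.66 CPM in Ctrl and 8.07, 8.06 and 8.69 CPM in cKO, and the groups did not overlap in CPM. In TPM they did, with 1.39, 1.82 and 1.85 in Ctrl and 1.76, 1.93 and 2.16 in cKO. The log2 fold change of 0.20 (SE 0.12) did not pass, with or without the block (edgeR adjusted p 0.619 and 0.373). Chl1 is known in both neurons and glia, and the median log2 fold change of the satellite glia and Schwann cell markers was 0.19. With the block 6 of these 12 markers were higher in edgeR, beside 1.76% of all genes, and without it none passed. The part of these markers in the value of Chl1 was not tested.

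**Figure D3:**
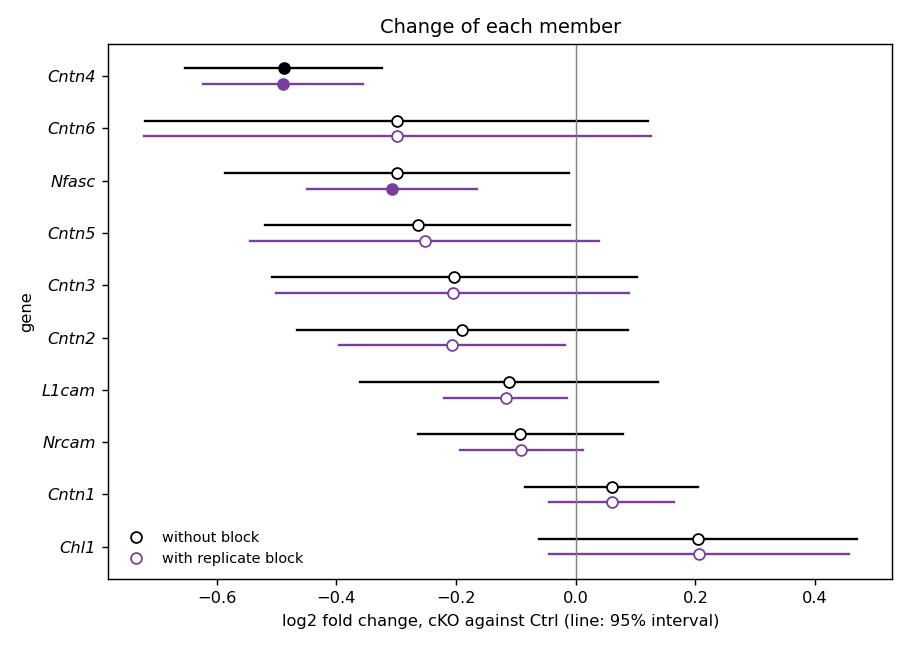
Log2 fold change of each member, cKO against Ctrl, with its 95% interval, in black without and in purple with the replicate block, and filled where the edgeR adjusted p was below 0.05. Cntn4 is filled in both fits and Nfasc in the blocked one, and the intervals of Cntn3 and Cntn6 are wide.

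Across the 10 members, 1 of 10 passed without the block, as lower, against a background of 0.370% of all genes tested. With the block 2 of 10 passed as lower in edgeR, against 3.56%, and none as higher, against 1.76%. With the block and an unadjusted edgeR p below 0.05, 4 members were lower, beside 1474 of the 14338 genes tested. At that threshold 0 members were higher, beside 1206 of the genes tested. At an unadjusted p below 0.05, Cntn4, Cntn5 and Nfasc passed without the block, where 10.7% of all genes did. The median log2 fold change was -0.23 over the 6 contactins and -0.10 over the 4 L1 family genes, beside 0.0044 over all tested genes. Groups without overlap were seen for 1 member as lower (8.77% of all genes) and 1 as higher (7.83%). All 3 pairs were lower for 5 members (20.3% of all genes) and higher for 2 (19.6%), and with library totals or DESeq2 size factors for 4 and 2. These members do not form independent observations, since the libraries are the same for all. The members were also chosen with earlier results of these data known. The counts and the shares beside them are therefore descriptions and not a test of the family.

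A feature shared by several members was a low value in the libraries numbered 1. On the CPM scale, Cntn2, L1cam, Nrcam and Nfasc were lowest in Ctrl 1 among Ctrl libraries and in cKO 1 among cKO libraries, which was true of 23.8% of all tested genes. Summed over the L1 family, levels were 213, 285 and 263 TPM in Ctrl and 182, 259 and 264 TPM in cKO. Summed over the contactins, they were 366, 463 and 423 TPM in Ctrl and 289, 405 and 427 TPM in cKO. Cntn4 was nearly equal in the 3 Ctrl libraries in CPM, while in TPM its number 1 library was lowest in both groups (15.4, 17.6 and 16.3 TPM in Ctrl, 9.89, 13.3 and 12.35 TPM in cKO). The part of the macrophage and erythroid RNA of cKO 1 in these low values was not tested.

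Cntn4 and Cntn5 were among 218 tested genes that span 500 kb or more. Their median log2 fold change was -0.02, and with the block 15 of them were lower (6.88%) and 6 higher. Genes under 50 kb had a median of 0.01, with 3.18% lower in the block test. Over the 6 libraries, the genes whose log2 CPM followed Cntn4 most closely were Bmerb1, Plekhg2 and Ndst4 (Pearson r of 0.997, 0.995 and 0.995). For Nfasc they were Zfhx2, Tub and Faf2 (0.992, 0.991 and 0.990). These are descriptions, since 11884 genes were searched with 6 points each and the points include the difference between the groups.

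Of 65 tested genes in lists of partners and related adhesion genes, none passed in edgeR without the block, nor in DESeq2 or limma-voom, and 13 had an unadjusted p below 0.05 in edgeR, as did 10.7% of all genes tested. With the block 7 were lower, beside 3.56% of all genes, and 2 higher, beside 1.76%. The lists were chosen with earlier results of these data known, so these shares are descriptions and not a test. Each list but that of the shedding proteases had at least 1 gene that passed with the block. Of these 9 genes, Cntnap2, Ncam2 and Iglon5 also passed in the block test without the libraries of any 1 number. Among the 6 tested contactin-associated proteins, which pair with contactins in the membrane, 2 were lower. Cntnap2, known for clustering potassium channels beside nodes, had 98.2, 93.8 and 97.7 CPM in Ctrl and 77.7, 86.0 and 75.1 CPM in cKO, with every cKO library below every Ctrl library. Its blocked log2 fold change was -0.28 (SE 0.06, edgeR adjusted p 0.0100). Cntnap5c was scarcer, at 8.78, 13.52 and 13.60 CPM in Ctrl and 7.50, 9.52 and 7.87 CPM in cKO. Its blocked log2 fold change was -0.52 (edgeR adjusted p 0.0179), and it did not pass without the number 2 or number 3 libraries (0.0824 and 0.118).

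None of the 8 ankyrin and spectrin genes passed in edgeR with or without the block, in DESeq2 or in limma-voom. At an unadjusted edgeR p below 0.05 with the block 3 were lower, beside 1474 of the 14338 genes tested. Of 16 such genes and other membrane linkers, Ezr, which encodes ezrin and links membrane proteins to actin, was the one that passed. It rose from 86.9, 80.4 and 83.9 CPM in Ctrl to 95.1, 95.7 and 98.9 CPM in cKO, with a blocked log2 fold change of 0.21 (edgeR adjusted p 0.0311). The groups of Ezr did not overlap, but the call was lost without the number 2 or number 3 libraries (edgeR adjusted p 0.366 and 0.0692). Over the list the median log2 fold change was -0.06.

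Among 17 extracellular ligands and co-receptors, 3 were lower and 1 higher with the block. Nrp1, a semaphorin receptor that pairs with L1cam, had 465, 513 and 552 CPM in Ctrl and 404, 451 and 453 CPM in cKO, and a blocked log2 fold change of -0.22 (edgeR adjusted p 0.00778). Aplp1, an amyloid precursor family gene, had -0.20 (edgeR adjusted p 0.0433), and Ncan, which encodes the proteoglycan neurocan, had -0.28 (edgeR adjusted p 0.0321). Tnc, which encodes the matrix protein tenascin-C, rose from 105, 114 and 112 to 130, 150 and 124 CPM (blocked log2 fold change 0.28, edgeR adjusted p 0.00805). For all 4 genes the CPM of the groups did not overlap, but in TPM those of Nrp1 and Ncan did. None of the 4 passed without the number 2 libraries (edgeR adjusted p 0.0811 to 0.211), and Aplp1 and Ncan did not pass without the number 1 libraries (0.151 and 0.0779), where their log2 fold changes were -0.11 and -0.16. With library totals in the block test Aplp1 did not pass (0.0633). Tnc moved in the same direction as the glial markers given above, and their part in its value was not tested.

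None of the 4 protease genes that shed adhesion proteins passed in edgeR, DESeq2 or limma-voom. In edgeR with the block 1 was lower at an unadjusted p below 0.05, beside 1474 of the 14338 genes tested. The 2 most highly expressed, Adam10 and Bace1, had blocked log2 fold changes of -0.10 and -0.11. Of 22 other immunoglobulin adhesion genes, 2 were lower with the block. Ncam2, a relative of the neural cell adhesion molecule, had 71.2, 79.0 and 86.2 CPM in Ctrl and 56.0, 72.5 and 65.5 CPM in cKO, with overlap and a blocked log2 fold change of -0.29 (edgeR adjusted p 0.0113). Iglon5, of the GPI-anchored IgLON family, had 57.2, 58.8 and 53.4 CPM in Ctrl and 38.2, 50.2 and 45.0 CPM in cKO, without overlap (-0.35, edgeR adjusted p 0.00959). Over this list the median log2 fold change was -0.04, and 15 of 22 values were negative, beside 6963 of the 14338 genes tested.

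**Figure D4:**
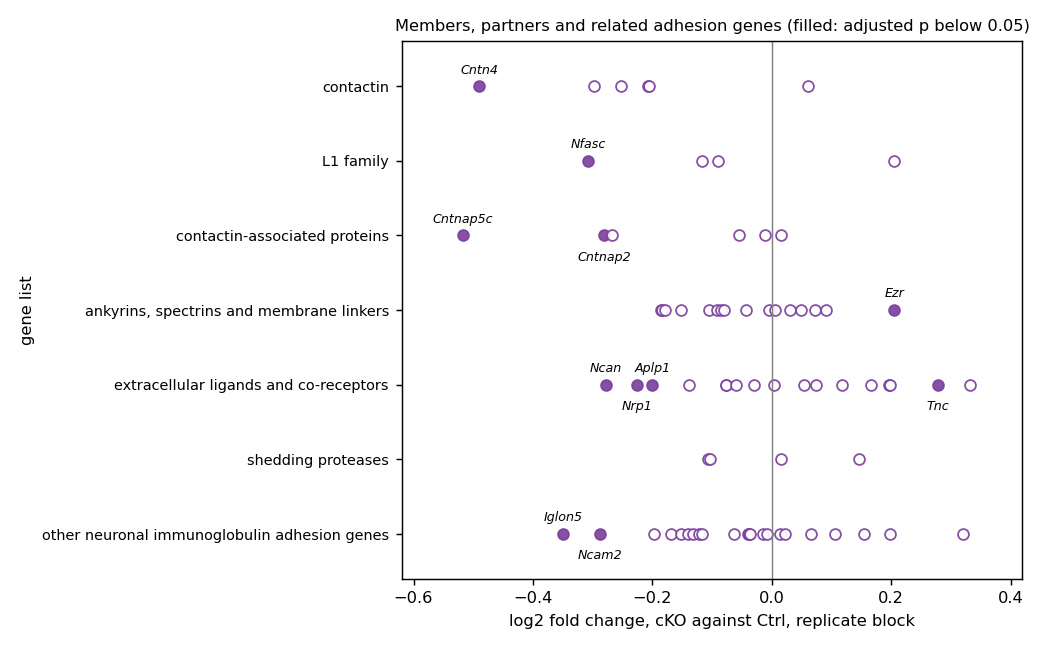
Log2 fold change with the replicate block (cKO against Ctrl) of every tested gene in the 7 lists, 1 point per gene, filled and named where the edgeR adjusted p was below 0.05. Filled points lie on the lower side for 9 genes, Cntn4 and Nfasc included, and on the higher side for Ezr and Tnc.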

How the data were processed

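RNA-seq was analysed from 3 cKO and 3 Ctrl libraries of dorsal root ganglia. The table deposited by the authors holds estimated counts for each gene in each library. The submitters' processing notes name RSEM 1.3.1, HISAT2 2.2.1, Bowtie2 2.4.5 and the build GRCm38 (mm10), with no role or order. They also deposited TPM values, used here for levels between genes, and FPKM values, which were not used. No source used here says whether the counting used strand.

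Counts were rounded, and genes were kept by filterByExpr (14338 of 17971). The main test was a two-sided quasi-likelihood test with robust fitting (edgeR 4.0.16, R 4.3.3) and TMM scaling, with Benjamini-Hochberg adjustment over all genes tested. Each SE was derived from the F statistic, and 95% intervals from the same fit. The models were tested on simulated counts with a common spread for all genes, and with a replicate effect only for the blocked model. Of 1.3-fold changes, 62% were recovered by the main model and 98% by the blocked one. Of 1.5-fold changes, 100% were recovered by each. The changed genes had higher counts than Cntn3, Cntn6 and Chl1, so recovery for such scarce members was not tested.

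In the titles each group has replicates 1 to 3. The numbers were taken to pair the libraries, and blocked values are given where they change a call. The submitters' library names share a prefix within each number. Deviations from the group means correlated across genes between libraries of the same number (r of 0.305, 0.208 and 0.201). Between Ctrl and cKO libraries of different numbers r ran from -0.241 to 0.075. The labels describe littermates and biological replicates, but do not say that each number is 1 litter.

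The members and gene lists were chosen with earlier results of these data known. Named genes are the 10 members, Ybx1, the called genes of each partner list (or else the 2 highest by mean TPM), and, for the 2 members with the smallest blocked p, the 3 genes of at least 5 CPM with the most similar profile. The neighbours of members, genes overlapping their exons and the comparison with neuron markers were chosen after values were seen. Alternatives used DESeq2 1.42.0, limma 3.58.1, other scalings, filters and libraries. Figures were drawn with matplotlib 3.10.9.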

Additional observations from a re-analysis of the deposited data

How the results depend on the processing

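Over 22 alternatives the log2 fold change of Cntn4 ranged from -0.55 to -0.44, and it passed in 15. Leaving out single libraries, 0 to 1 members and 18 to 104 genes passed. The log2 fold change of L1cam ranged from -0.19 to 0.0089 when single libraries were left out, turning positive without cKO replicate 1 but not without both libraries numbered 1, and no other member changed sign in any alternative. In the test without the block, 69 genes and 1 member passed. With the replicate block 764 genes (511 lower, 253 higher) and 2 members passed, and with the block and library totals 799 (403 lower, 396 higher) and 2. With the block and without both libraries numbered 1, 2 or 3, the counts were 1252 genes and 3 members, 260 and 1, and 836 and 3. Of these, Cntn5 was the added call without number 1 and Cntn2 the one without number 3. Without the block, models that left out both libraries numbered 1, 2 or 3, added after seeing the data, called 731, 8 and 2 genes and 2, 0 and 0 members. Library totals alone gave 44 genes, with 28 lower and 16 higher, against 53 lower and 16 higher with TMM scaling. The DESeq2 test gave 184 genes and no filter 128, each with Cntn4 as the 1 member called. On log2(TPM + 1) and log2(TPM + 0.1), limma called 10 and 12 genes and 0 members. Models that leave out a number have 4 libraries, which limits their estimate of the spread. The cause of these differences was not tested. Cntn3, Cntn6 and Chl1 had 40 to 149 counts per library, which limits what could be detected for them.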
